A study of Mus musculus with 3 samples.

Results

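L1Md is the name given to the mouse lineages of LINE-1, the long interspersed element that still moves in the mouse genome. Every repeat name beginning with L1Md (lower-case d) was taken from the deposited counts, which gave 25 names of the 18484 listed. They fall into 8 families, A, Tf, Gf, N, F, Fanc, Mus and V, and a Roman numeral marks each subfamily within a family. The counts come from RNA immunoprecipitation sequencing (RIP-seq) of mouse hippocampus, which sequences RNA precipitated with an antibody. Each of 3 groups has 1 library, called PS19 ZBP1, PS19 ZNA and WT ZNA by the genotype of the mice and the target of the antibody. All mice were 9 months old with a C57BL/6 background. The PS19 line expresses a mutant form of human tau from a transgene, which the wild-type (WT) mice lack. The labels do not say how many mice went into a library, and no input or isotype-control library and no WT ZBP1 library was analysed here. With 1 library per group no difference below has a replicate check, and each interval covers counting error only.

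A full-length LINE-1 makes an RNA with a pair of reading frames, one for an RNA-binding protein and one for a protein that cuts DNA and copies the RNA back into it. Most copies in the genome are cut short at the 5′ end and carry no promoter, so reads on a LINE-1 name can also come from copies that lie inside other transcripts. The mouse promoters are built of tandem repeats called monomers. Copies that can still move in laboratory mice belong to the A, Tf and Gf families, and the other families are generally taken to be inactive lineages. ZBP1 is a sensor of nucleic acid in the left-handed Z conformation and can start inflammatory signalling and cell death. The ZNA antibody is directed at such nucleic acid itself. The files name repeats and no genes, so the tissue was checked only on BC1_Mm, the name of a neuronal RNA, which had 33 reads in PS19 ZBP1, 146 in PS19 ZNA and 77 in WT ZNA.

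The first question was how much of each library L1Md names took. There were 7345 L1Md reads among 1425383 in PS19 ZBP1, 55510 among 2918985 in PS19 ZNA and 23201 among 3234786 in WT ZNA. Per library total these were 0.515% (95% Wilson interval 0.504 to 0.527%), 1.90% (1.89 to 1.92%) and 0.717% (0.708 to 0.726%). The names LSU-rRNA_Hsa and SSU-rRNA_Hsa, which collect ribosomal RNA, took 94.8%, 89.4% and 95.5% of these libraries, so the library total is mostly ribosomal. Of the reads outside those 2 names, L1Md took 9.86% (9.65 to 10.1%) in PS19 ZBP1, 18.0% (17.9 to 18.1%) in PS19 ZNA and 16.0% (15.8 to 16.1%) in WT ZNA. The PS19 ZNA library was thus highest and PS19 ZBP1 lowest with both denominators, while the distance between the ZNA libraries shrank once ribosomal reads were set aside.

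All 25 subfamilies had reads in all 3 libraries. A subfamily had from 34 to 878 reads in PS19 ZBP1 (median 263), from 388 to 6109 in PS19 ZNA (median 1782) and from 138 to 2582 in WT ZNA (median 834). L1MdN_I was the lowest and L1MdF_IV the highest in each. A name pools every copy in the genome, and the files give neither copy number nor length, so these counts do not rank the subfamilies by expression per copy. Young copies are nearly identical, and how reads matching several copies were counted is not given in the sources used here. That choice can move reads between sister subfamilies or drop them, and it touches the youngest names most.

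Per library total, the order PS19 ZNA, then WT ZNA, then PS19 ZBP1 held in 25 of 25 subfamilies, against 37.3% of 751 names outside rRNA. The 95% Poisson intervals of the upper pair were apart in 25 of 25 (25.8% of names). Those of the lower pair were apart in 22 (7.46% of names), and overlapped in L1MdA_IV, L1MdA_V and L1MdA_VII. Per reads outside rRNA the same order held in 24 of 25 (23.0% of names), with L1MdTf_III the exception. That order with the intervals of the ZNA libraries apart held in 11 of 25 (3.06% of names). The ZBP1 library stayed lowest in 25 of 25 (41.4% of names), with its interval apart in 24 (9.85% of names); L1MdA_V was the exception. Intervals separate more readily in L1Md names than in most others, which have fewer reads. The plot of levels by subfamily shows both denominators.

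**Figure D1:**
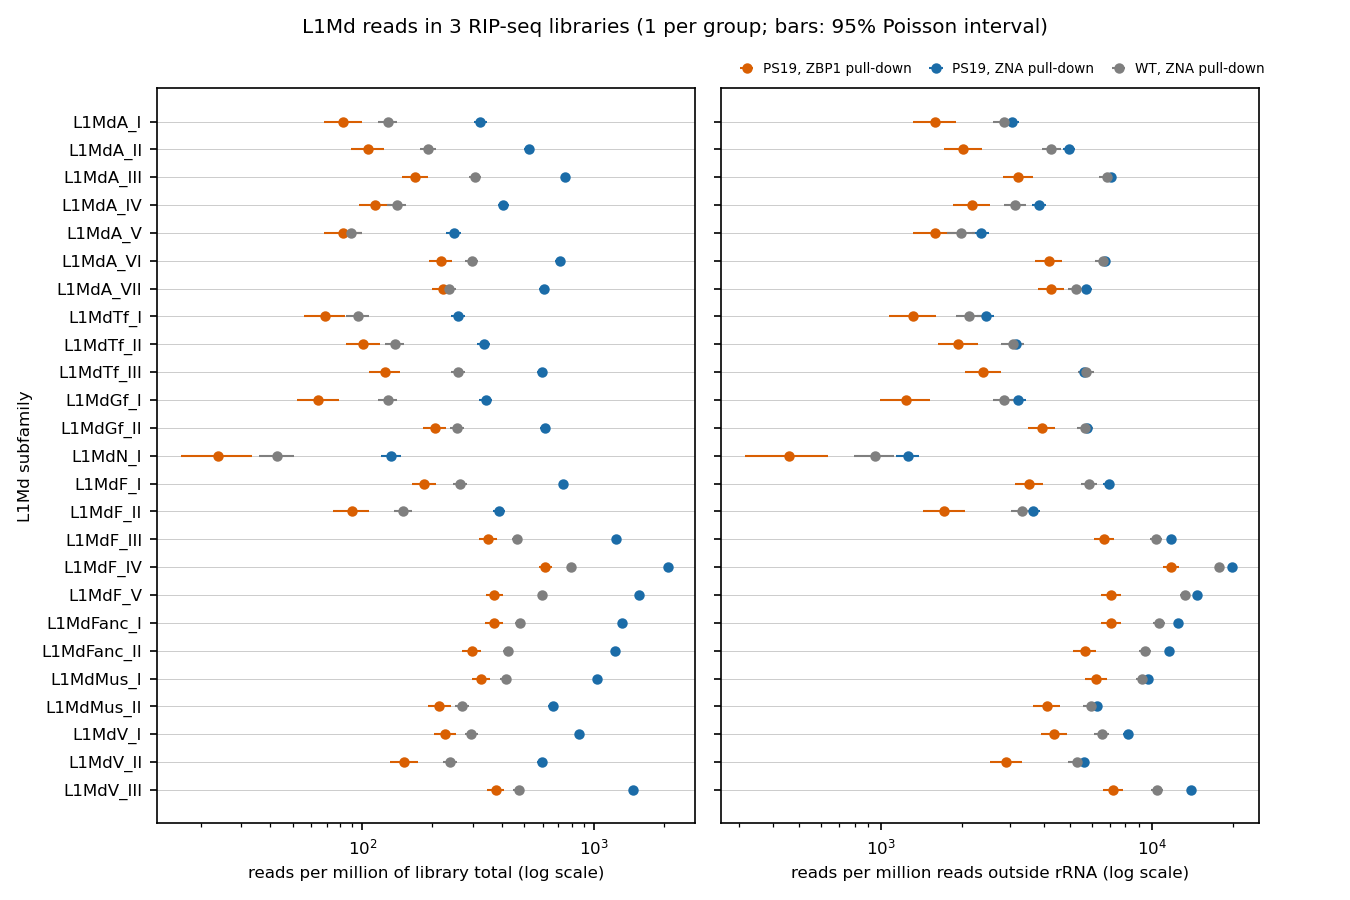
Reads of each L1Md subfamily as CPM, scaled to the library total (left), and on the same scale relative to the reads outside rRNA (right), on log axes, in the 3 libraries; points are single libraries and bars 95% Poisson intervals. On the left the PS19 ZNA point is the highest in all 25 rows, and on the right it moves close to the WT ZNA point while the ZBP1 point stays lowest.

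The families made up similar portions of the L1Md reads in the 3 libraries. Family F, with 5 subfamilies, held 31.2% of L1Md reads in PS19 ZBP1, 31.6% in PS19 ZNA and 31.7% in WT ZNA. The A family, whose 7 subfamilies run from younger to older as the numeral grows, held 19.3%, 18.7% and 19.4% in the same order. Together with Tf (5.72%, 6.24% and 6.84%) and Gf (5.24%, 4.999% and 5.35%), A covers the families with mobile copies. V held 14.7%, 15.4% and 14.0%, Fanc 12.9%, 13.4% and 12.6%, Mus 10.5%, 8.87% and 9.54%, and N 0.463%, 0.699% and 0.595%. In percentage points the widest move was that of Mus, whose 95% Wilson interval in the ZBP1 library (9.80 to 11.2%) did not reach that in PS19 ZNA (8.63 to 9.11%). Between the ZNA libraries the intervals of V (15.1 to 15.7% in PS19, 13.6 to 14.5% in WT), Fanc, Tf and Mus were also apart. Those of A, F, Gf and N overlapped.

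**Figure D2:**
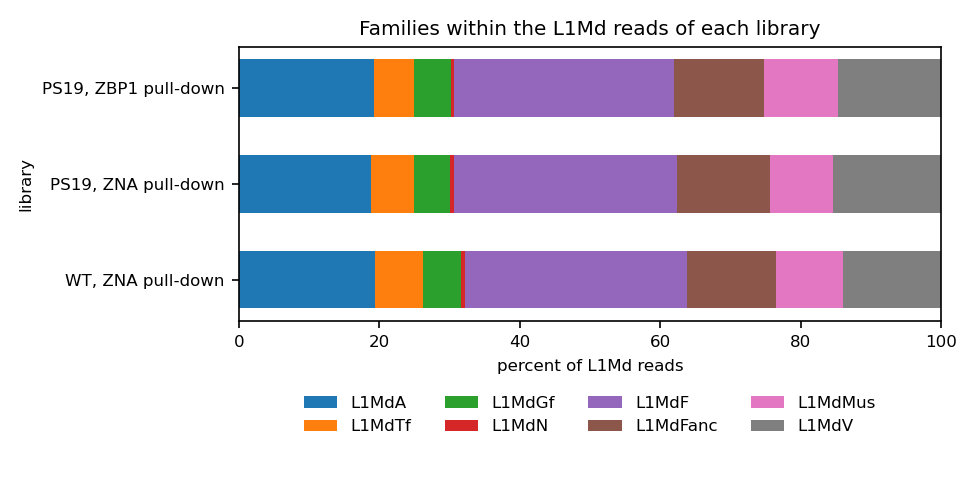
Stacked bars give the percent of L1Md reads that fell on each of the 8 families in the 3 libraries, with each bar adding up to 100. The segments of families F (31.2 to 31.7%) and A (18.7 to 19.4%) line up closely, while V runs from 14.0 to 15.4% and Mus from 8.87 to 10.5%.

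The first comparison sets L1Md reads of the ZNA pull-down from PS19 hippocampus beside those from WT hippocampus, with 1 library each. Without an input or isotype-control library, RNA bound by the antibody cannot be told from background. Pooled L1Md reads were 2.65-fold higher in the PS19 library per library total (95% exact interval 2.61 to 2.69) and 1.13-fold higher per reads outside rRNA (1.11 to 1.14). In RNA from whole tissue, more cells holding L1Md RNA and more of it per cell cannot be told apart. All 25 subfamilies were at least 2-fold higher per library total. Among all 713 names compared, 74.3% were, so this count by itself says little about L1Md. The median log2 ratio of CPM (counts scaled to equal library totals), with a pseudocount of 1, was 1.39 over the L1Md names and 1.24 over all names. Per reads outside rRNA no subfamily was 2-fold higher, against 4.64% of 711 names. The medians there were 0.16 for L1Md and 0.08 for all names, and 24 of 25 L1Md names lay above 0, against 59.6% of all names. TMM scaling, which centres the bulk of names, left 0 of 25 at 2-fold, against 3.23% of all names. It left 18 of 25 above 0, against 49.6%.

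A finer count used the exact interval of each ratio per reads outside rRNA. It lay wholly above no change in 15 of 25 subfamilies and wholly below in 0. Over all 711 names the share above was 14.6% and the share below 6.47%. Over the 157 names with at least as many reads as L1MdN_I, the lowest member, these shares were 31.8% and 9.55%. The deeper group is the closer comparison, since an interval narrows with reads: members had a median of 2609 reads over the ZNA libraries, all names 114.

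The families with mobile copies spread over most of the range of PS19 to WT ratios. L1MdA_IV was the 4th highest of the 25, at 1.23-fold per reads outside rRNA (1.10 to 1.37), while the lowest 3 were members of Tf, Gf and A. L1MdTf_III had 1739 reads in PS19 ZNA, 834 in WT ZNA and 178 in PS19 ZBP1. Its PS19 to WT ratio was the lowest of the 25, at 2.31-fold per library total (2.13 to 2.51) and 0.982-fold per reads outside rRNA (0.904 to 1.07). L1MdGf_II had 1782, 827 and 293 reads in the same order of libraries, for 2.39-fold (2.20 to 2.60) and 1.01-fold (0.934 to 1.10). For L1MdA_VI, with 2075, 957 and 310 reads, the ratios were 2.40-fold (2.22 to 2.60) and 1.02-fold (0.946 to 1.10). These 3 names had the lowest ratios, and none differed from the bulk of non-ribosomal reads by more than counting error. L1MdA_III, the A subfamily with the most reads over the 3 libraries together (2184, 991 and 240), lay little above them at 1.04-fold per reads outside rRNA (0.963 to 1.12). Sisters lay above no change on that scale: L1MdTf_I at 1.15-fold (1.01 to 1.32), L1MdGf_I at 1.13-fold (1.004 to 1.27) and L1MdA_II at 1.16-fold (1.05 to 1.27). So did L1MdA_V (1.03 to 1.36) and L1MdA_VII (1.001 to 1.19). The intervals of L1MdTf_II (0.918 to 1.15) and L1MdA_I (0.950 to 1.20) included no change.

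The family Tf as a whole had a log2 ratio 0.14 below that of the other L1Md reads (interval of the difference -0.23 to -0.05). For Gf the difference was -0.10 (-0.20 to -0.0038), and for A it was -0.06 (-0.11 to -0.0009). Each of these differences is smaller than the 0.17 by which pooled L1Md reads rose on the log2 scale relative to reads outside rRNA, and the interval for A comes close to 0.

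The highest PS19 to WT ratios belonged to V and N. L1MdV_III had 4313 reads in PS19 ZNA, 1526 in WT ZNA and 536 in PS19 ZBP1. It was 3.13-fold higher in PS19 than in WT ZNA per library total (2.95 to 3.32) and 1.33-fold higher per reads outside rRNA (1.26 to 1.41). L1MdV_I, with 2518, 953 and 325 reads, was 2.93-fold (2.72 to 3.16) and 1.24-fold (1.15 to 1.34) higher. Their sister L1MdV_II was 1.06-fold higher per reads outside rRNA, with an interval that included no change (0.973 to 1.16). That interval lay apart from the one of L1MdV_III, so these V subfamilies did not share a common factor within counting error. It narrowly overlapped the one of L1MdV_I. L1MdN_I rests on 388, 138 and 34 reads, and its 1.32-fold (1.09 to 1.62) has the widest interval of the 25.

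Relative to the other L1Md reads, family V stood 0.16 higher on the log2 scale (0.10 to 0.23) and Fanc, the ancestral F lineage, 0.10 higher (0.03 to 0.17). Mus stood 0.12 lower (interval of the difference -0.19 to -0.04), F did not differ beyond counting error (-0.05 to 0.04), and neither did N (-0.05 to 0.53). Taken one by one against the other L1Md reads, 3 subfamilies had an interval above 0 and 5 below. The standard deviation of the 25 log2 ratios was 0.12 per library total, against 0.07 from counting error. The most-read names of the remaining families lay inside the range already given. L1MdF_IV had 6109, 2582 and 878 reads and was 1.11-fold higher per reads outside rRNA (1.06 to 1.17). For L1MdFanc_I (3849, 1550 and 527 reads) the value was 1.17-fold (1.10 to 1.24), and for L1MdMus_I (2989, 1344 and 464 reads) it was 1.05-fold (0.982 to 1.12).

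**Figure D3:**
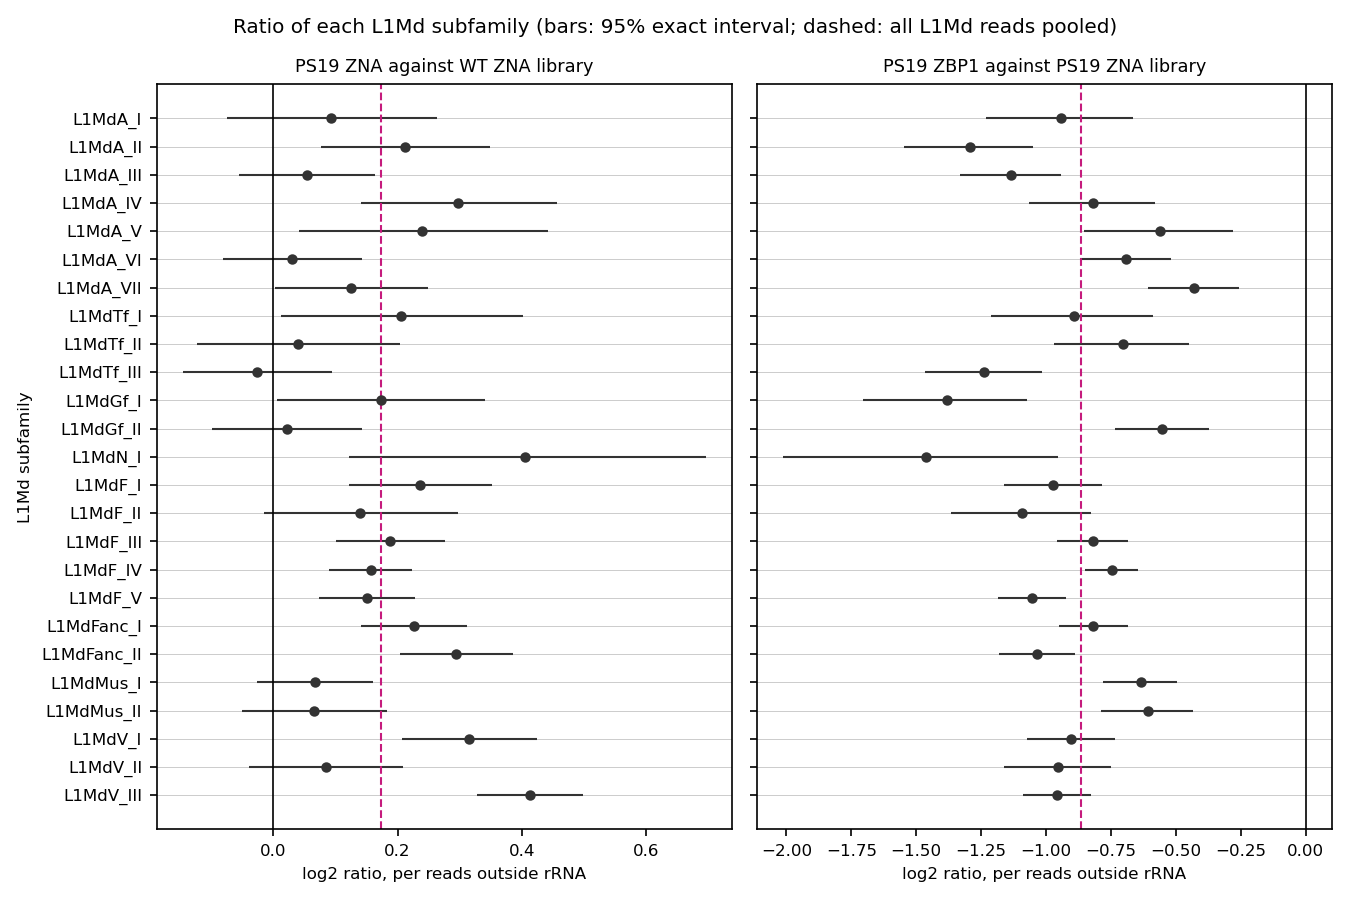
Log2 ratio of each L1Md subfamily per reads outside rRNA, for PS19 ZNA against WT ZNA (left) and PS19 ZBP1 against PS19 ZNA (right); bars are 95% exact intervals, the solid line is no change and the dashed line the pooled L1Md reads. On the left 15 of 25 intervals lie above 0, and on the right all 25 lie below 0 with a wider scatter.

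The other comparison, of the antibodies within PS19, sets L1Md reads precipitated with the ZBP1 antibody beside those precipitated with the ZNA antibody. It shares PS19 ZNA with the first comparison, so the 2 sets of ratios are not independent. Pooled L1Md reads were 3.69-fold lower in the ZBP1 library per library total (3.60 to 3.78) and 1.82-fold lower per reads outside rRNA (1.78 to 1.87). All 25 subfamilies were lower by at least 2-fold per library total, against 50.1% of 682 names. Here the L1Md names lay apart from the bulk of names also after ribosomal reads were set aside. Their median log2 ratio per reads outside rRNA was -0.90, and that of all 680 names -0.05.

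Per reads outside rRNA, 8 of 25 subfamilies were lower by at least 2-fold with the ZBP1 antibody, against 9.41% of all names. They were L1MdA_II, L1MdA_III, L1MdF_II, L1MdF_V, L1MdFanc_II, L1MdGf_I, L1MdN_I and L1MdTf_III, which come from 6 of the 8 families. TMM scaling also put 8 of 25 past the limit, against 7.92% of all names. The exact interval lay below no change in 25 of 25 subfamilies, against 18.7% of all names and 43.7% of the 167 names with at least as many reads as L1MdN_I.

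The subfamilies differed among themselves more here than in the first comparison. The standard deviation of the 25 log2 ratios was 0.26 per library total, against 0.12 from counting error. Against the other L1Md reads, 7 subfamilies had an interval above 0 and 7 below. The lowest was L1MdN_I, 5.57-fold lower per library total (3.92 to 8.16) on 34 reads against 388, and 2.75-fold lower per reads outside rRNA (1.94 to 4.03). L1MdGf_I followed, with 92 reads in the ZBP1 library, 993 in PS19 ZNA and 415 in WT ZNA, at 5.27-fold (4.25 to 6.60) and 2.60-fold (2.10 to 3.26). L1MdA_II had 150, 1525 and 620 reads and was 4.96-fold (4.20 to 5.91) and 2.45-fold (2.07 to 2.92) lower.

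At the other end stood L1MdA_VII, with 317 reads in PS19 ZBP1, 1771 in PS19 ZNA and 765 in WT ZNA. It was 2.73-fold lower than in PS19 ZNA per library total (2.42 to 3.08) and 1.35-fold lower per reads outside rRNA (1.20 to 1.52). L1MdGf_II came next at 2.97-fold (2.62 to 3.37) and 1.47-fold (1.30 to 1.67). L1MdA_V, with 118, 722 and 288 reads, was 2.99-fold (2.46 to 3.66) and 1.48-fold (1.21 to 1.81) lower. The lowest and the highest names therefore include sister subfamilies: the intervals of L1MdGf_I and L1MdGf_II do not overlap, nor do those of L1MdA_II and L1MdA_VII.

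Within family A the log2 ratio per reads outside rRNA was -0.94 for L1MdA_I, -1.29 for L1MdA_II and -1.13 for L1MdA_III. For L1MdA_IV it was -0.82, for L1MdA_V -0.56, for L1MdA_VI -0.69 and for L1MdA_VII -0.43. The 3 younger A subfamilies were thus lower in the ZBP1 library than the 4 older ones, although each of the 3 younger names has an interval that overlaps that of L1MdA_IV (-1.07 to -0.58). Gf ran the same way, with -1.38 for L1MdGf_I and -0.55 for L1MdGf_II. Tf did not: L1MdTf_I had -0.89, L1MdTf_II -0.71 and L1MdTf_III -1.24. Nor did family F follow its numerals, with values of -0.97, -1.09, -0.82, -0.75 and -1.05 from L1MdF_I to L1MdF_V. The order by numeral in A and Gf was noticed in the values and is given as a description.

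By family, Mus was the family with the smallest deficit in the ZBP1 library. Its log2 ratio stood 0.27 above that of the other L1Md reads (0.15 to 0.38). L1MdMus_I and L1MdMus_II were close to each other at 1.55-fold (1.41 to 1.72) and 1.52-fold (1.35 to 1.73) lower per reads outside rRNA. N stood 0.60 below (interval of the difference -1.15 to -0.09). The differences of A, F, Fanc, Gf, Tf and V from the other L1Md reads all had intervals that included 0. In A, F and Gf these pool sister subfamilies with intervals on opposite sides of the other L1Md reads. For the most-read names, the ZBP1 library was 1.68-fold lower per reads outside rRNA for L1MdF_IV (1.56 to 1.80) and 1.76-fold for L1MdFanc_I (1.61 to 1.93). It was 1.94-fold lower for L1MdV_III (1.77 to 2.13), 2.20-fold for L1MdA_III (1.92 to 2.52) and 2.36-fold for L1MdTf_III (2.02 to 2.77). The F and Fanc names were nearer to the pooled 1.82-fold than L1MdA_III and L1MdTf_III were.

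L1Md was then set against older LINE-1 of the same libraries: 27 rodent Lx and older Mus names, and 89 names of the ancient L1M and HAL1 type, which other mammals share. In the ZNA pull-down, PS19 against WT, the pooled ratio per reads outside rRNA was 1.13-fold for L1Md, 1.01-fold for the rodent names (0.994 to 1.02) and 1.05-fold for the ancient names (1.02 to 1.07). On the log2 scale L1Md was 0.16 above the rodent group (0.13 to 0.19) and 0.11 above the ancient group (0.06 to 0.15). These differences do not depend on the library total, which cancels, and they are small.

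For ZBP1 against ZNA the 3 groups lay further apart. Per reads outside rRNA, L1Md was 1.82-fold lower, the rodent names 1.44-fold lower (1.41 to 1.47) and the ancient names 1.30-fold lower (1.25 to 1.35). The log2 ratio of L1Md was below that of the rodent group by a difference of -0.35 (-0.39 to -0.30) and below that of the ancient group by a difference of -0.49 (-0.56 to -0.43). All 27 rodent names also lay below 0, so lower values in the ZBP1 library were not confined to L1Md. The lowest rodent names, L1_Mur1 (-1.38), L1_Mur3 (-1.32) and L1_Mur2 (-1.16), were also past the 2-fold limit. They lay below the L1Md median of -0.90, while the rodent median was -0.55. Of the 70 ancient names compared, 53 lay below 0. The share of all names below 0 was not computed, but the median of all 680 names also lay below 0, at -0.05. The names overlap widely, and the lowest ancient name, L1ME4a (-3.66), lay beneath every L1Md name. Many ancient names have few reads and the reads of L1ME4a are not given here, so that extreme carries little weight. With the 4 L1Lx names added to the rodent group, L1Md made up 32.6% of these LINE-1 reads in PS19 ZBP1, 38.1% in PS19 ZNA and 36.0% in WT ZNA.

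**Figure D4:**
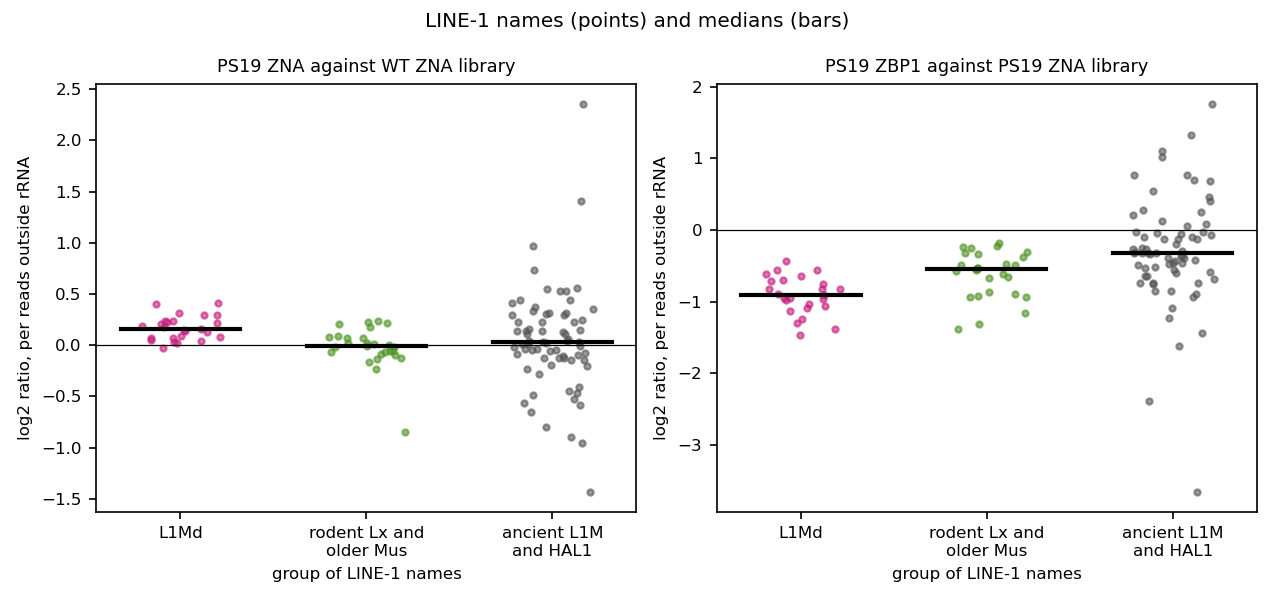
Log2 ratio per reads outside rRNA of each LINE-1 name (points) in 3 groups, with the group median as a bar, for PS19 ZNA against WT ZNA (left) and PS19 ZBP1 against PS19 ZNA (right). The L1Md median is 0.16 on the left and -0.90 on the right, the rodent median -0.01 and -0.55, the ancient median 0.03 and -0.32; ancient names scatter most, and many of them have few reads.

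Between PS19 ZBP1 and WT ZNA both genotype and antibody differ, so their values are only set side by side. As shares of the reads outside rRNA, the lowest, median and highest subfamily took 0.0457%, 0.353% and 1.18% in PS19 ZBP1 and 0.0949%, 0.574% and 1.78% in WT ZNA. In PS19 ZNA these were 0.126%, 0.577% and 1.98%. Genotype and antibody cannot be told apart between these libraries.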

How the data were processed

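The authors deposited raw counts: for each repeat name, a whole number of reads, not normalized as far as the file headers and values show. The submitters' processing notes name Trim Galore 0.6.5, STAR 2.5.3a, featureCounts 2.0.4 and build mm39. The repeat annotation, strand setting and treatment of multi-mapping reads are not given in the sources used here, and a name carries no position. Groups came from the sample titles.

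CPM used each library's total over all names, and a second scale used reads outside the 2 rRNA names. Names needed a mean of at least 1 CPM and 20 summed reads over the libraries compared, and a call was a 2-fold change of CPM with a pseudocount of 1. All 25 members passed. Folds of single names and pooled reads carry no pseudocount, with exact conditional (Clopper-Pearson) 95% intervals; differences between groups of names are conditional odds ratios with exact intervals. Reads lack molecular identifiers, so intervals cover counting error only. With 1 library per group no test of a condition was possible. The limit a count of 0 allows (3 reads) was 2.10 CPM in PS19 ZBP1, 1.03 CPM in PS19 ZNA and 0.927 CPM in WT ZNA.

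Members and lists were chosen with earlier results of these data known. Named subfamilies are the most-read one of each family and, per comparison, the 3 highest and 3 lowest ratios among members with at least 100 reads; L1MdV_II, L1MdMus_II and the further subfamilies of A, F, Gf and Tf were named after their values were seen. On simulated data with 200 names changed 3-fold, 97.0% were recovered for PS19 against WT (709 names) and 97.5% for ZBP1 against ZNA (669 names). Of the unchanged names, 4 of 509 and 12 of 469 were called. Apart from the changed names, the simulated libraries of a pair shared the same composition and carried counting error only. These rates therefore do not cover variation between libraries or a shift of the ribosomal share. Alternatives were TMM factors (edgeR 4.0.16, R 4.3.3), another pseudocount (0.1 or 5), another filter (none, or a mean of 10 CPM) and another limit (1.5-fold or 4-fold). Intervals came from scipy 1.17.1 under Python 3.11.15, with pandas 2.3.3 and numpy 2.4.6, and plots from matplotlib 3.10.9. L1Md sequences are not printed, since none was in the reference tables used here.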

Additional observations from a re-analysis of the deposited data

How the results depend on the processing

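Scaling moved the results most. For PS19 against WT in the ZNA pull-down, the 25 L1Md names at least 2-fold higher became 0 per reads outside rRNA, 0 under TMM and 0 at a 4-fold limit. The median log2 ratio went from 1.39 to 0.16 and 0.077 (reads outside rRNA and TMM), and the pooled one from 1.41 to 0.17 and 0.093. L1MdTf_III changed sign under both (-0.026 and -0.11). L1MdA_III (-0.026), L1MdA_VI (-0.049), L1MdGf_II (-0.058), L1MdMus_I (-0.013), L1MdTf_II (-0.040) and L1MdMus_II (-0.014) did so under TMM. For ZBP1 against ZNA in PS19, the 25 names at least 2-fold lower became 8 per reads outside rRNA, 8 under TMM and 8 at a 4-fold limit. The share of all names past the 4-fold limit was not computed in either comparison. The counts at that limit therefore do not set L1Md apart from other names. The median went from -1.92 to -0.90 and -0.88, and the pooled log2 ratio from -1.88 to -0.87 and -0.85, with no change of sign. Reads outside rRNA leave out the ribosomal share by construction; the cause of the moves under TMM was not tested.

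The difference between L1Md and ancient LINE-1 in ZBP1 against ZNA was -0.49 for pooled reads and -0.60 for medians over names; the cause was not tested. The other differences between groups stayed within their intervals, also with the L1Lx names, added after seeing the data. Per library total, the other pseudocounts and filters and the 1.5-fold limit left the counts of names as reported. The counts per reads outside rRNA and under TMM were not recomputed with these settings. Of 88 recomputed ratios of the subfamilies that the naming rule chose, 44 stayed within their counting interval, 38 moved and 6 changed sign. The split followed the setting. All 22 ratios per reads outside rRNA and all 22 under TMM moved or changed sign, and 0 did with either pseudocount. With 1 library per group, no library could be left out. No paired analysis was possible because each group has 1 library. PS19 ZBP1 is the shallowest library, with 0.702 CPM per read.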
